A study of Homo sapiens with 12 samples.

Results

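Hep3B is an established line from human hepatocellular carcinoma. The comparison described here sets 3 arrays of Hep3B cells transfected with an siRNA against 3 arrays of Hep3B cells transfected with a negative control RNA, all harvested after 48 h, and so uses 6 of the 12 arrays of the series. The members were chosen by array title, and all 22465 named genes among 66212 tested rows were read. The other 6 arrays come from Huh7, a second established hepatocellular carcinoma line with the same siRNA and control groups, and serve here for the shared estimate of spread and for a test of where the lines differ. According to the series title, the study concerns 1 long non-coding RNA in this cancer. Neither group carries another labelled agent or allele, and both were grown in the same serum-containing medium. That RNA's own level is not analysed here, since its name matched none of the rows, and the labels were therefore not checked against the targeted RNA. Separate cultures are not mentioned for the 3 arrays of either group, and the spread behind each p-value is that between arrays, which may be technical.

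A liver cancer cell keeps much of the hepatocyte's secretory programme: proteins for the blood are threaded into the endoplasmic reticulum, folded and glycosylated there, and carried by coated vesicles to the Golgi. Its growth and shape respond to epidermal growth factor receptor ligands, to immediate early transcription factors and to the tension of its actin fibres. An siRNA guides the RNA interference machinery to a complementary transcript, and it can also act on partly matching transcripts.

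Values are log2 intensities, quantile normalized between arrays. A level is a log2 intensity, a change is the siRNA mean minus the control mean in log2 units with its standard error (SE, n = 3 arrays per group), and "rose", "fell" and "called" are used of limma's moderated test past an adjusted p of 0.05, with Benjamini-Hochberg adjustment over all 66212 rows. A gene counts as above background when the mean of at least 1 of the groups compared exceeds 5.78, the level of the brightest of 23 background rows. Hep3B arrays of one group correlated at r of 0.993 to 0.994 across rows, siRNA with control arrays at 0.983 to 0.986, and Hep3B with Huh7 arrays at 0.947 to 0.961. Of 15 measured hepatocyte markers 13 were above background in both groups, while 0 of 10 endothelial markers were. Among 9 fibroblast markers PDGFRA alone passed that level, in the siRNA group, and among 10 blood markers CD68 and LYZ did in both groups. EPCAM, SLC4A2 and SOX9 of 9 cholangiocyte markers were above background in both groups. Of the 15 hepatocyte markers 4 rose and 4 fell, with changes from -1.62 to 1.58 and a median of -0.13. Their summed level, which the brightest genes set, lay between 20.08 and 20.23 in the siRNA arrays and between 20.59 and 20.64 in the control arrays, on the log2 scale. That of the cholangiocyte markers lay between 12.25 and 12.39 in siRNA arrays and between 12.54 and 12.63 in control arrays. For the fibroblast markers it was 7.49 to 7.54 in siRNA arrays and 7.41 to 7.43 in control arrays. Endothelial markers summed to 7.13 to 7.20 in siRNA arrays and 7.15 to 7.19 in control arrays, and blood markers to 11.09 to 11.47 in siRNA arrays and 11.14 to 11.27 in control arrays. The part of these marker levels in the results was not tested, and in bulk RNA fewer cells of a type and less RNA per cell cannot be told apart.

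Of the 22465 named genes 3797 were called, 16.9% of those tested: 2100 rose (9.35%) and 1697 fell (7.55%). A change of at least 2-fold was reached by 265 genes that rose (1.18%) and 175 that fell (0.779%). The median change of all named genes was -0.003, and 55.3% of the called named genes were higher, against 67.6% when the arrays were only centred on their medians. Among the 7407 named genes above background 42.1% were called, 22.7% higher and 19.3% lower. The share of calls was lowest for dim genes: 0.622% of the 9162 genes with a mean level under 4 rose and 0.317% fell. Of the 810 genes with a level from 10 to 12, 27.8% rose and 24.0% fell. Among the 454 genes over 12 the shares were 23.1% and 23.8%. Protein-coding genes rose in 11.2% and fell in 8.96% of 17085 cases, and long non-coding RNAs in 3.42% and 1.74% of 1840. Of these protein-coding genes 6584 were above background, and of these long non-coding RNAs 112, so the shares were not compared at equal level. Genes of the cell cycle, YAP and TAZ targets, the ATF4 response and small RNAs make up 2420 of the named genes, with 128 higher and 197 lower. The other 20045, from which the ranked names were taken, held 1972 that rose (9.84%) and 1500 that fell (7.48%).

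**Figure D1:**
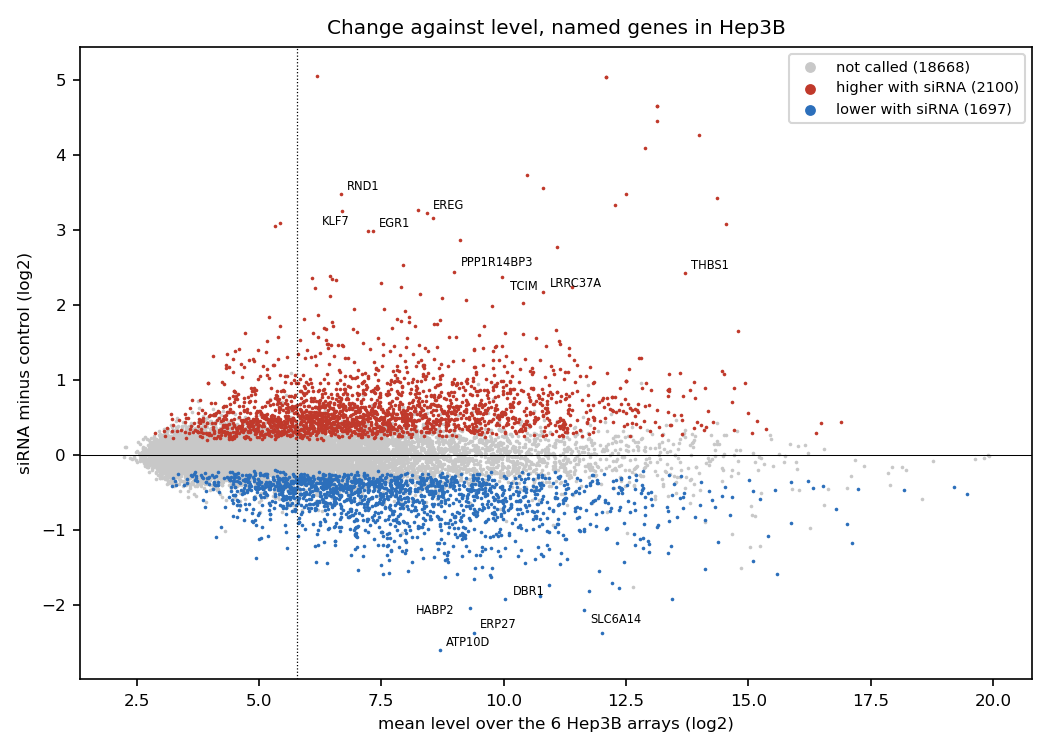
Change (siRNA minus control, log2) against mean level over the 6 Hep3B arrays (log2) for 22465 named genes, 1 point each, with 2100 higher genes in red, 1697 lower genes in blue and the background level of 5.78 as a dotted line. Labelled genes are from the ranked names outside the 4 groups named in the text, of which THBS1 rose at a high level and ATP10D fell most.

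Among these genes, ranked by change with no overlap between the groups and with the higher group above background, the largest rises were in RND1, a growth factor and 2 zinc finger transcription factors. The conditions left 1583 genes higher and 1269 lower, of which the 15 largest changes each way are named. Groups did not overlap in 37.6% of all named genes, so the lack of overlap alone is common in this comparison. RND1, which stays bound to GTP and loosens actin fibres, read 7.86, 8.60 and 8.77 on the siRNA arrays, against 4.78, 4.79 and 5.20 on the control arrays. Its control level lay within background, so the rise was at least 6.20-fold over the background level (adjusted p = 5.2e-06, limma). EREG, the epidermal growth factor receptor ligand epiregulin, read 9.51, 10.21 and 10.42 with siRNA and 6.68, 6.74 and 7.02 with control RNA, a change of 3.23 ± 0.22 (SE, adjusted p = 7.98e-06, limma). The lowest siRNA array stood well above the highest control array for both genes.

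EGR1, an immediate early transcription factor that serum and growth factors induce, had levels of 8.47, 8.78 and 9.22 on siRNA arrays and 5.73, 5.88 and 5.87 on control arrays, a change of 2.99 ± 0.16 (adjusted p = 2.16e-06, limma). Its control mean lay just above the background level. The classic sites for serum response factor in the promoter of this gene are CArG boxes, and a search of both strands of the 250 bases before the start site in RefSeq's promoter table (GRCh38.p14) found 2 of them, on the plus strand of chromosome 5. The sequence at chr5:138465229-138465478 is shown because it carries both matches, in capitals.
EGR1: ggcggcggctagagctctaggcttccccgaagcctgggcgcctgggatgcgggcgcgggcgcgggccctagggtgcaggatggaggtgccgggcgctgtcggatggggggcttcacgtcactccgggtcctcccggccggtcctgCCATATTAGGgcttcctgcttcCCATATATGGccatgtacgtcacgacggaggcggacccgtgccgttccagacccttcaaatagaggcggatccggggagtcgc
Among genes above background that have an entry in the promoter table, a CArG box stood in 1.68% of the 1308 that rose, in 0.692% of the 1012 that fell and in 0.856% of the 3156 not called. One stood in 1.14% of all 27305 promoters. EGR1 was the single ranked gene with a match, out of those with an entry, and the match describes letters, not binding.

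KLF7, a Krüppel-like transcription factor, read 8.41, 8.82 and 8.96 with siRNA, against 5.83, 5.74 and 5.64 with control RNA, at least 7.72-fold over background (adjusted p = 4.61e-06, limma). JUNB, a subunit of the AP-1 transcription factor, read 6.65, 7.40 and 7.71 on siRNA arrays, against 5.13, 4.88 and 5.07 on control arrays, at least 2.78-fold over background (adjusted p = 9.11e-05, limma). TBX15, a T-box transcription factor, had levels of 8.13, 8.82 and 8.96 with siRNA and 6.08, 6.35 and 6.60 with control RNA. All 3 transcription factors had their lowest siRNA level on array 1, as did RND1, EREG and EGR1. Without siRNA array 1 the change of RND1 was 3.76 and that of EREG 3.50, and 1995 named genes were higher.

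Secreted proteins and enzymes completed the ranked rises. THBS1, the matrix glycoprotein thrombospondin-1, read 14.60, 15.08 and 15.07 on siRNA arrays, against 12.42, 12.50 and 12.55 on control arrays, a change of 2.43 ± 0.14 (adjusted p = 2.28e-06, limma). IGFBP1, a liver protein that binds insulin-like growth factors, read 7.09, 7.98 and 7.88 with siRNA and 5.20, 5.27 and 5.29 with control RNA, at least 3.65-fold over background. AKR1B10, an aldo-keto reductase, had levels of 7.55, 7.83 and 7.87 on siRNA arrays and 5.38, 5.49 and 5.37 on control arrays, at least 3.92-fold over background. In each of these genes the groups were separated by more than the spread within either one. NOLC1, a nucleolar phosphoprotein, rose by 2.15 and the small transcriptional regulator TCIM by 2.38. SIPA1L2, of the family of Rap GTPase activating proteins, rose at least 3.30-fold over background, and LPP-AS2, an antisense transcript of the LPP locus, at least 2.82-fold. The remaining names, PPP1R14BP3 (a pseudogene, 2.44) and LRRC37A (a member of a family of near-identical copies, 2.18), are uncertain, because probes may read their copies.

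The largest falls were in ATP10D, in proteins secreted by hepatocytes and in enzymes of several compartments. ATP10D, a phospholipid flippase, read 7.49, 7.37 and 7.35 on siRNA arrays, against 10.02, 10.00 and 9.98 on control arrays, a change of -2.60 ± 0.09 (adjusted p = 1.5e-07, limma). ERP27, a protein disulfide isomerase relative of the endoplasmic reticulum without catalytic activity, had levels of 8.20, 8.21 and 8.21 with siRNA and 10.62, 10.42 and 10.68 with control RNA. DBR1, which opens intron lariats after splicing, read 9.06, 9.08 and 9.08 on siRNA arrays and 10.95, 11.04 and 10.96 on control arrays. The siRNA arrays of these 3 genes lie close together, and all lie below the control arrays, which the ranking required. SLC6A14, an amino acid transporter of the plasma membrane, fell by 2.06, with levels of 10.86, 10.52 and 10.47 in siRNA arrays and 12.66, 12.78 and 12.60 in control arrays.

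Complement, coagulation and carrier proteins made up much of the rest of this ranking. C5, which the complement cascade cleaves to start the membrane attack complex, read 9.79, 9.81 and 9.83 with siRNA, against 11.64, 11.74 and 11.69 with control RNA, a change of -1.88 ± 0.06 (adjusted p = 1.5e-07, limma). C3, the central complement protein, had levels of 14.79, 14.94 and 14.69 on siRNA arrays and 16.36, 16.36 and 16.45 on control arrays. APOC1, a lipoprotein component, read 8.85, 9.01 and 8.94 with siRNA and 10.57, 10.61 and 10.47 with control RNA. None of these 3 genes had a siRNA array within the range of the control arrays, which the ranking required. Further falls were in KNG1 (kininogen, -1.77), HABP2 (a plasma serine protease, -2.03), SERPINF1 (a secreted serpin, -1.70) and TTR (transthyretin, -1.62). IL17RB, a receptor of interleukin-25, fell by 1.59, the peroxisomal acyltransferase CROT by 1.58 and the surface protein ADAM22 by 1.57. FABP5P7, a pseudogene whose probes may read other copies, stood at -1.65.

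**Figure D2:**
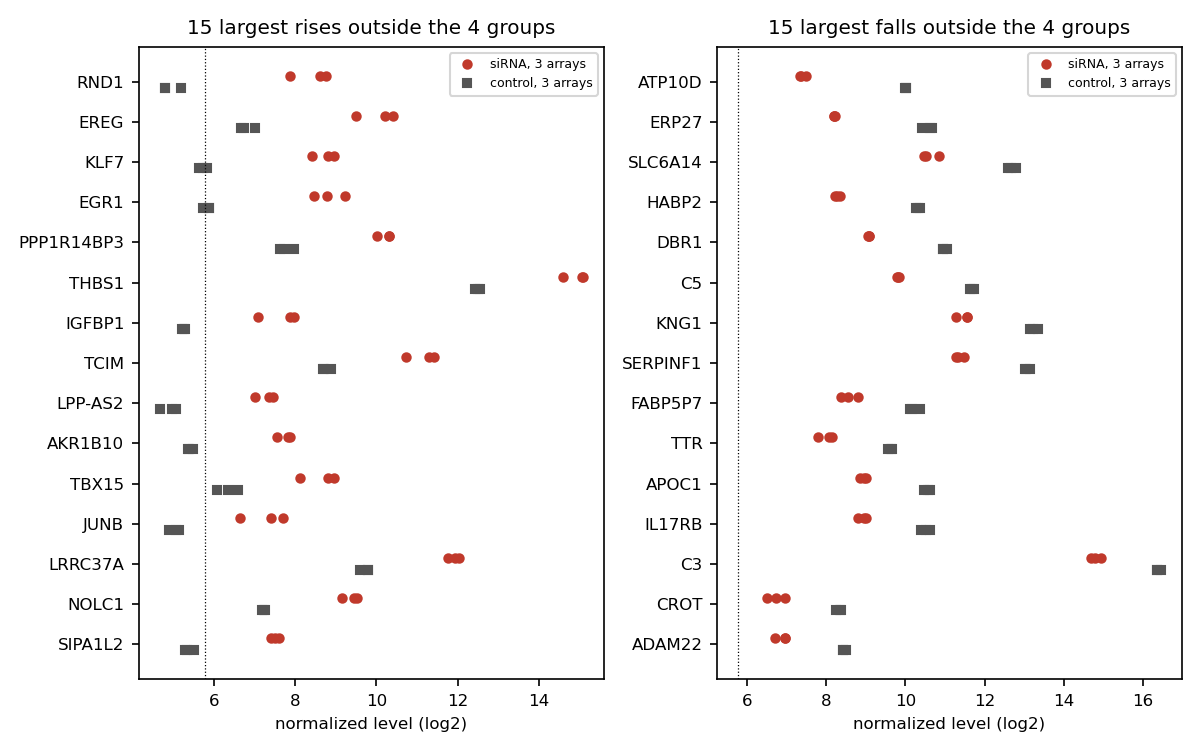
Normalized level (log2) of the 15 largest rises (left panel) and 15 largest falls (right panel) outside the 4 groups named in the text, with 3 siRNA arrays as red circles above 3 control arrays as grey squares for each gene, and the background level of 5.78 as a dotted line. The siRNA and control points of a gene do not overlap, which the ranking required.

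The gene lists that follow are described by how many members rose or fell and by their median change, beside 9.35% higher, 7.55% lower and a median of -0.003 over all named genes. Many lists lie mostly above background, where 22.7% of named genes rose and 19.3% fell: 17 of 19 histone acetyltransferases and BET proteins, 32 of 35 genes of AU-rich element decay, 17 of 17 m6A genes, 45 of 53 initiation factors, 35 of 41 translocon genes, 34 of 37 coat genes and 22 of 32 lysosomal genes were above background. Above background were also 36 of 51 DEAD and DEAH box helicases, 14 of 16 nonsense-mediated decay genes and 21 of 26 exosome genes. So were 31 of 42 methyltransferase and Polycomb genes, 24 of 31 remodelling subunits, 26 of 42 autophagy genes and 37 of 54 USP deubiquitinases. In the helicase, methyltransferase, autophagy and USP lists the share that rose was near 22.7%, and the share that fell was under 19.3%. The lists were written with earlier results of these data known. Of the members counted, ZNF367 (higher) and KPNA2 and STXBP4 (both lower) also belong to the 4 groups set aside for the ranking, and stand in the ZNF, nucleoporin and SNARE lists. Some share genes, and their members are not replicates. Where a list has 0 members called in one direction below, the count in that direction at an unadjusted p under 0.05 in limma was 1 for the Krüppel-like factors (lower), the tubulins (higher) and the COPI and COPII coats (higher) and 2 for the lysosomal genes (higher). It was 0 for the clock, histone acetyltransferase, nonsense-mediated decay, keratin, proteoglycan and tetraspanin lists.

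Regulators of transcription were more often higher than lower. Of 17 measured Krüppel-like and related factors 7 rose and 0 fell, with a list median of 0.15. Above background were 6 of the 17, so not every factor that rose was above background. KLF6 rose by 1.92, KLF10, which TGF-beta induces, by 1.13, and KLF5 by 0.83. Of 21 circadian clock genes, 13 of them above background, 7 rose and 0 fell (median 0.12). Among them the repressor of the clock NR1D2 rose by 1.27 and BHLHE40, another repressor, by 0.77. Mediator, the complex that links transcription factors to RNA polymerase II, went both ways, with 9 of 31 subunits higher and 5 lower, the kinase CDK8 at 1.01 and MED23 at -1.17.

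Chromatin enzymes leaned upward in several lists, although the histone deacetylases and sirtuins had 1 of 18 higher and 1 lower. Of 19 histone acetyltransferases and BET proteins 8 rose and 0 fell (median 0.21). BRD2, which reads acetylated histones, had levels of 11.85, 12.04 and 11.81 on siRNA arrays and 10.23, 10.24 and 10.23 on control arrays, a change of 1.67 ± 0.08 (adjusted p = 7.05e-07, limma). Among 29 histone lysine demethylases 9 rose and 3 fell. KDM6B, which removes methyl groups from lysine 27 of histone H3, read 7.08, 7.57 and 7.41 with siRNA, against 5.89, 5.84 and 5.92 with control RNA, and the JmjC proteins KDM2A and JMJD1C rose by 1.34 and 1.02, while the H3 lysine 4 demethylase KDM1A fell by 0.62. Of 42 lysine methyltransferases and Polycomb genes 11 rose and 4 fell, with KMT2E at 1.21, SETD7 at 1.05 and KMT5B at 0.89. Chromatin remodelling subunits rose in 9 of 31 cases and fell in 3, among them BAZ1A of the ISWI class at 1.11, and DPF2 and ARID1A of the SWI/SNF class at 1.02 and 0.91.

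The ZNF genes, most of which encode DNA-binding zinc finger proteins of which many carry a KRAB repressor domain, formed the largest list with a one-sided count. Of 502 measured genes 165 rose (32.9%) and 6 fell (1.2%), with a median change of 0.16, and the change was positive in 78.1%, against 49.1% of all named genes. In 257 of the 502 both group means lay within background. The lower and upper quartiles of the list were 0.016 and 0.457, against -0.104 and 0.105 for all named genes. The rise was at least 2-fold for 16 genes. The 6 genes that fell were ZNF519, ZNF236, ZNF789, ZNF331, ZNF496 and ZNF320. ZNF134 read 8.58, 9.13 and 9.19 on siRNA arrays, against 7.32, 7.22 and 7.02 on control arrays, a change of 1.78 ± 0.16 (adjusted p = 3.87e-05, limma). ZNF121 had levels of 10.41, 10.77 and 10.57 with siRNA and 9.14, 9.04 and 9.18 with control RNA. The siRNA arrays were all above the control arrays in both genes, with array 1 the lowest of the siRNA arrays. ZNF426 rose by 1.32, and ZNF416, whose control level was within background, at least 2.03-fold. Many ZNF genes are close paralogs, and how far probes of one read another is not stated.

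The promoters of ZNF genes were searched because many members moved one way. In the 250 bases before the start site, on both strands, the ETS motif CCGGAAG stood in 42.3% of 111 ZNF genes that rose and in 27.8% of 97 that were not called, both above background. It stood in 19.7% of the 1197 other genes that rose, in 12.5% of genes that fell, in 19.6% of the 3156 not called and in 8.82% of all promoters. CCAAT stood in 56.8% of the ZNF genes that rose, in 42.3% of those not called, in 34.2% of other genes that rose, in 36.8% of genes that fell, in 35.7% of the 3156 not called and in 33% of all promoters. A match of one motif cannot contain the other. ETS and CCAAT belong to a larger set of motifs counted in the same windows. Within that set they had the widest gaps, in percentage points, between ZNF genes that rose and those not called. Other motifs differed less and in both directions. The GC box GGGCGG stood in 63.1% of the ZNF genes that rose and 69.1% of those not called, and TGACG in 28.8% and 24.7%. Of the 4 genes named by the list rule, ZNF134 held 1 ETS match, ZNF416 1 CCAAT match, and the windows of ZNF121 and ZNF426 neither. The 2 promoters with a match are shown with it in capitals, ZNF134 on the plus strand at chr19:57613992-57614241, where the match is on the other strand, and ZNF416 on the minus strand at chr19:57578912-57579161 (GRCh38.p14).
ZNF134: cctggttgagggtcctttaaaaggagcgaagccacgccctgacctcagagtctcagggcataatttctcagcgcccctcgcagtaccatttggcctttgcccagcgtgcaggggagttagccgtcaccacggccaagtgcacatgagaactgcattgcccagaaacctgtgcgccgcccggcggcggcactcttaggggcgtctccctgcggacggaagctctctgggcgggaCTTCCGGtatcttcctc
ZNF416: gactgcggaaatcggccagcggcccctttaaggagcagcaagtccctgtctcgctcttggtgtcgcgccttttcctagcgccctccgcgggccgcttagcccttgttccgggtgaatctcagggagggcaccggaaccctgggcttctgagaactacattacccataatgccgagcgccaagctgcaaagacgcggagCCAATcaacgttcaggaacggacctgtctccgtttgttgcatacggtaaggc
These shares are a description of letters in a fixed window and were not tested.

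**Figure D3:**
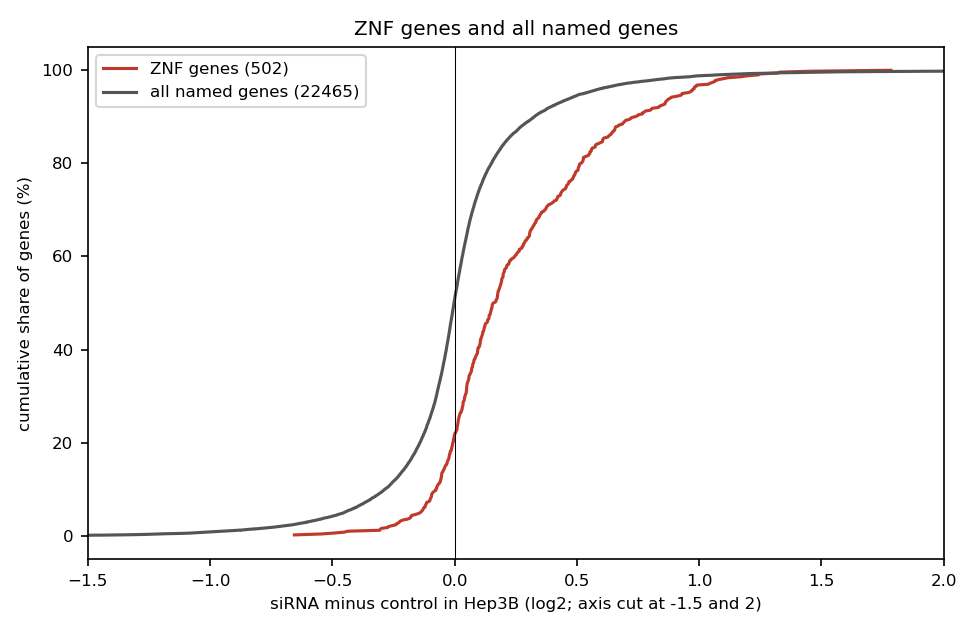
Cumulative share of genes (%) against change (siRNA minus control in Hep3B, log2; axis from -1.5 to 2) for 502 ZNF genes in red and all 22465 named genes in grey. The ZNF curve lies to the right, with a median of 0.16 against -0.003.

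Genes that handle RNA and start translation were more often higher than lower as well. Of 35 genes of AU-rich element decay and deadenylation 10 rose and 3 fell (median 0.23). ZFP36L1, which binds AU-rich elements and recruits deadenylases, rose by 1.12, the decapping factor DCP1A by 0.87 and the 5′ exonuclease XRN1 by 0.66, while the antiproliferative deadenylase partner TOB1 fell by 0.68. Of 16 nonsense-mediated decay genes 5 rose and 0 fell (median 0.25), among them PNRC2 at 0.90, SMG9 at 0.78 and UPF2 at 0.70. In the RNA exosome and nuclear surveillance list 8 of 26 rose and 2 fell. Among 51 DEAD and DEAH box helicases 13 rose and 3 fell, led by the nucleolar helicases DDX21 at 1.16 and DDX56 at 0.95, while DHX40 stood at -0.91. The m6A list had 4 of 17 higher and 1 lower, which is near the share of higher genes above background, with the nuclear reader YTHDC1 at 0.98. Of 53 translation initiation factors 15 rose and 3 fell (median 0.11), including EIF5 at 0.82 and EIF5B at 0.79, both of which act in start site selection and subunit joining. Nucleoporins and transport receptors were balanced at 13 higher and 12 lower of 66, with NUP107 at -1.06 and NUP88 at 0.90.

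In the lists of the secretory pathway more members fell than rose, although most members of each list were not called lower. Of 41 genes of the ER translocon, signal peptidase and N-glycan transfer 17 fell and 2 rose (median -0.20). RPN2, a subunit of the oligosaccharyltransferase that attaches N-glycans, read 12.70, 12.71 and 12.58 on siRNA arrays, against 13.61, 13.65 and 13.61 on control arrays. TUSC3 and STT3B, of the same enzyme, fell by 0.95 and 0.79, and SSR1, of the translocon-associated complex, by 0.91. Of 25 protein disulfide isomerases, which form and shuffle disulfide bonds, 10 fell and 1 rose, among them ERP27 (levels above), PDIA4 at -1.22, PDIA3 at -0.67 and PDIA6 at -0.63. For COPI and COPII coats, 12 of 37 genes fell and 0 rose (median -0.20), among them the KDEL retrieval receptor KDELR1 at -0.74, the COPII subunit SEC23A at -0.61 and the cargo receptor TMED10 at -0.56. Golgi glycosyltransferases fell in 12 of 80 cases and rose in 4. Of 43 SNAREs and syntaxins 11 fell and 3 rose, with SNAP23, a plasma membrane SNARE, at -0.64. The translocon, coat and lysosomal counts were recomputed under other settings and depended on scaling and on single arrays, while the other counts of this paragraph were not recomputed: after median centring 10 translocon genes, 7 coat genes and 7 lysosomal genes fell. Without control array 1 10 translocon genes fell. Without any one of control arrays 2 and 3 and siRNA arrays 2 and 3, 7 coat genes fell.

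More lysosomal genes fell than rose, and the balance was the other way for autophagy. Of 32 lysosomal hydrolases and membrane proteins 12 fell and 0 rose (median -0.23). LAMP2, a major protein of the lysosomal membrane, read 10.62, 10.47 and 10.51 on siRNA arrays, against 11.84, 11.89 and 11.77 on control arrays, a change of -1.30 ± 0.11 (adjusted p = 3.41e-05, limma). PSAP, the precursor of the saposins, fell by 1.01, the acid ceramidase ASAH1 by 0.98 and the protease LGMN by 0.88. Without control array 2, control array 3 or siRNA array 3, in each case, 7 lysosomal genes fell. Of 42 genes of the autophagy machinery 10 rose and 1 fell (median 0.09), among them ATG14 at 1.17 and BECN1 at 0.97, both of the lipid kinase complex that starts autophagosomes, the conjugating enzyme ATG3 at 0.83 and MAP1LC3B, the coat protein of autophagosomes, at 0.76. Of 54 USP deubiquitinases 13 rose and 6 fell, with USP36, USP31 and USP15 at 0.88, 0.87 and 0.86.

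**Figure D4:**
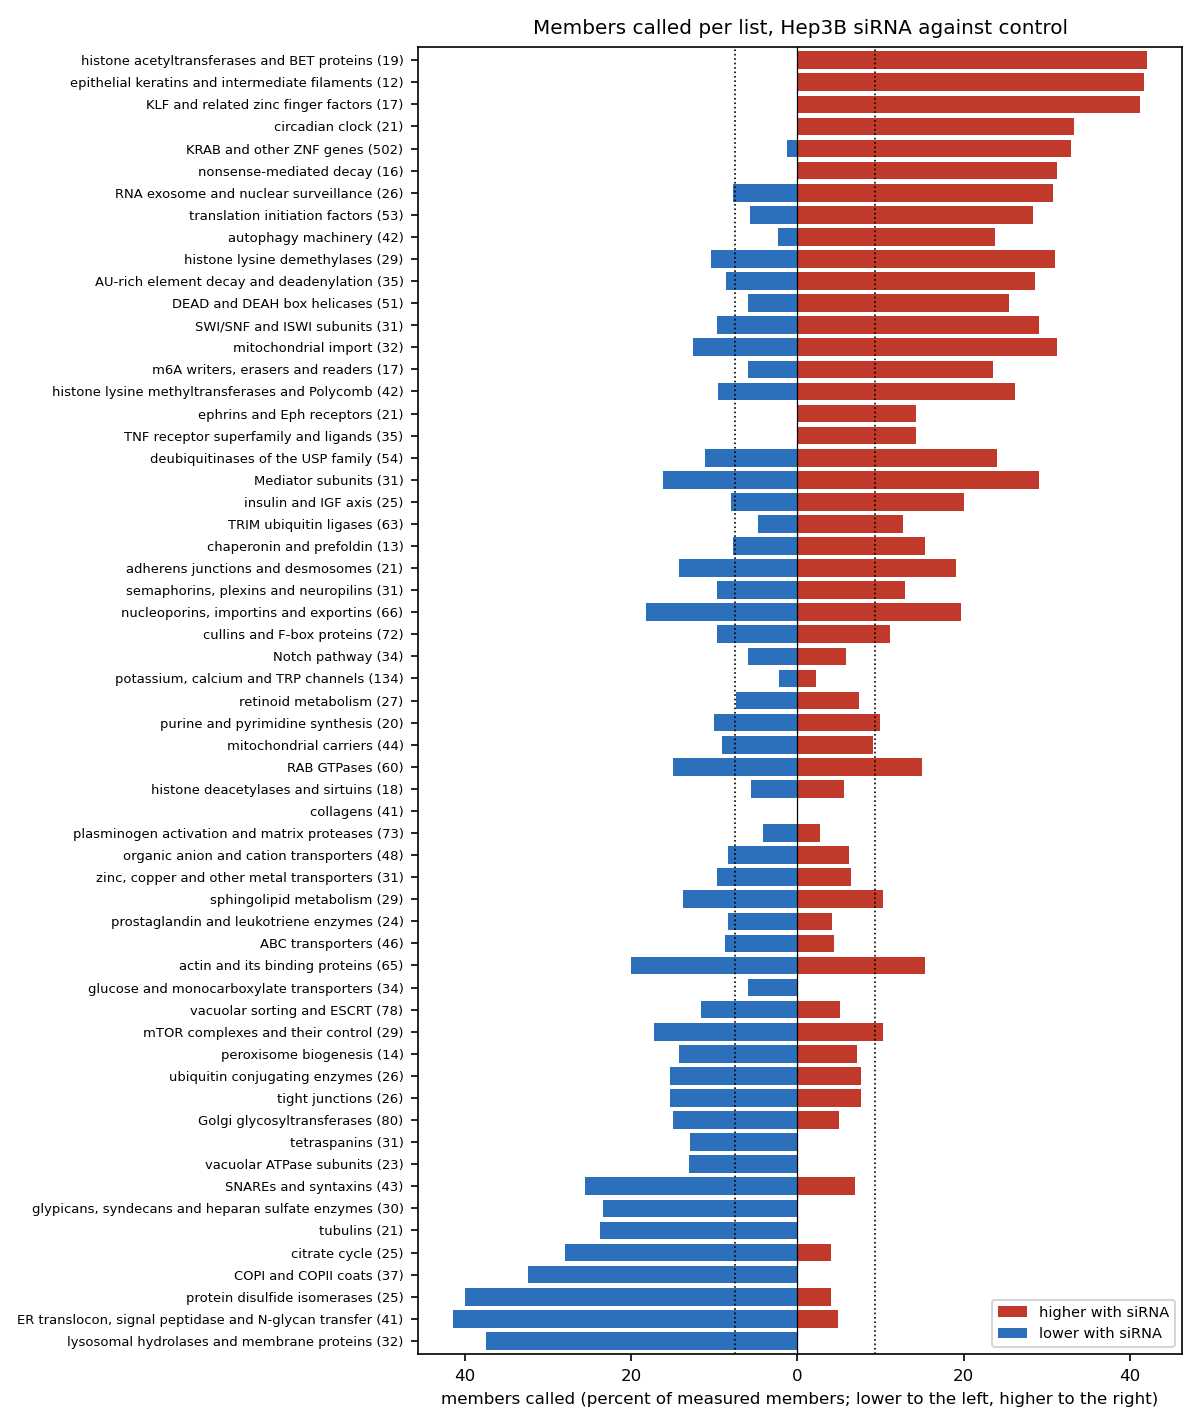
Share of measured members that rose (red, to the right) or fell (blue, to the left) in the gene lists shown, each with at least 12 measured members, in percent, with the number measured in brackets and dotted lines at the shares of all named genes, 9.35% higher and 7.55% lower. Histone acetyltransferases and BET proteins stand at the top with 8 of 19 higher and lysosomal genes at the bottom with 12 of 32 lower.

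Genes of the cytoskeleton and of cell contacts changed in both directions. Of 65 genes of actin and its binding proteins 10 rose and 13 fell. TPM4, a tropomyosin of stress fibres, read 10.48, 10.46 and 10.44 with siRNA, against 8.71, 8.82 and 8.68 with control RNA, a change of 1.72 ± 0.09. MRTFA, the actin-sensing partner of serum response factor, rose by 1.06 and VASP, which extends actin filaments, by 0.97, while the actin-binding CAP2 fell by 1.38. Of 12 keratins and other intermediate filament genes 5 rose and 0 fell, with KRT18 at 1.17, VIM (vimentin) at 1.02 and KRT8 at 0.84. Tubulins fell in 5 of 21 cases and rose in 0.

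At junctions, 4 of 21 adherens junction and desmosome genes rose and 3 fell. CDH2, N-cadherin, had levels of 8.86, 8.99 and 9.14 on siRNA arrays and 7.98, 7.83 and 7.90 on control arrays. CDH1, E-cadherin, had levels of 10.16, 10.07 and 10.12 on siRNA arrays and 10.77, 10.83 and 10.95 on control arrays. The first rose by 1.09 and the second fell by 0.74, with no overlap in either gene. PKP2, a desmosomal plakophilin, rose by 1.17, and CTNNB1, beta-catenin, fell by 0.54. Surface proteoglycans went one way: of 30 glypicans, syndecans and heparan sulfate enzymes 7 fell and 0 rose, including the fetal liver glypican GPC3 at -1.52, the heparan sulfate polymerase EXT2 at -1.07, SDC2 at -1.04 and GPC6 at -0.83. Tetraspanins fell in 4 of 31 cases and rose in 0, among them TSPAN3 at -0.95 and TSPAN6 at -0.69. None of 41 collagens was above background, and 0 were called, also at an unadjusted p under 0.05 in limma.

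In signalling and metabolism the lists went different ways. Of 25 insulin and IGF axis genes 5 rose and 2 fell. Besides IGFBP1, the docking protein IRS2 rose by 1.61 and the transcription factor FOXO3 by 0.66, and GRB14, an adaptor that inhibits the insulin receptor, fell by 0.90. Of 25 citrate cycle enzymes 7 fell and 1 rose (median -0.20), including mitochondrial IDH2 at -1.17, the pyruvate dehydrogenase subunit DLAT at -0.67, and MDH1 and IDH1, the cytosolic relatives of cycle enzymes, at -0.54 and -0.53. Mitochondrial import genes went the other way more often, with 10 of 32 higher and 4 lower, among them the outer membrane receptor TOMM22 at 1.42 and the matrix co-chaperone GRPEL2 at 1.18. Of 31 metal transporters 2 rose and 3 fell, with the zinc exporter SLC30A1 at 1.44 and SLC30A9 at -0.91. Matrix proteases and the plasminogen system had 2 of 73 higher and 3 lower, with the membrane protease ADAM9 at -0.68. Lists at or below about the share of all named genes included Notch genes (2 of 34 higher, 2 lower), ABC transporters (2 of 46 higher, 4 lower) and ion channels (3 of 134 higher, 3 lower). Of 364 olfactory receptors, of which 2 were above background, 5 were called higher and 3 lower.

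The difference between the lines was tested as the Hep3B change minus the Huh7 change. Of the named genes 686 differed (3.05%), with 371 differences positive (1.65%) and 315 negative (1.4%). That count was 335 to 447 without any one of the 3 Hep3B control arrays, Hep3B siRNA arrays 2 and 3, Huh7 control arrays 1 and 2 and Huh7 siRNA array 1, 359 after median centring and 1335 with rows above background alone. Of the 3797 genes called in Hep3B 1752 were called the same way in Huh7, which is 46.1% of the Hep3B calls and 57.1% of the 3068 Huh7 calls, and 41 were called the opposite way. In Huh7 13.7% of named genes were called, 6.78% higher and 6.87% lower. Across the 6764 genes above background in both lines the changes correlated at r of 0.746 (Spearman 0.717), given as a description, since genes share arrays and are not independent. The Hep3B and Huh7 arrays share no control.

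Several of the ranked rises differed between lines. EGR1 changed by 2.99 in Hep3B and 0.03 in Huh7, a difference of 2.96 (adjusted p = 0.000403, limma). EREG changed by 3.23 in Hep3B and 0.11 in Huh7 (difference 3.12, adjusted p = 0.00109, limma). IGFBP1 rose at least 3.65-fold over background in Hep3B, and its difference was called (adjusted p = 0.00252, limma) but has no exact size, because its Hep3B control level was within background. The Huh7 means of these genes all lay within background, at 4.26 with siRNA and 4.23 with control RNA for EGR1, 4.48 with siRNA and 4.36 with control RNA for EREG, and 4.85 with siRNA and 4.77 with control RNA for IGFBP1. The differences of EGR1 and EREG therefore have no exact size either. NOLC1 rose in both lines, by 2.15 in Hep3B and 1.83 in Huh7, and its difference had an adjusted p of 0.328. ATP10D changed by -2.60 in Hep3B and -0.17 in Huh7 (difference -2.43, adjusted p = 3.78e-05, limma). KNG1 stood at -1.77 in Hep3B and -1.76 in Huh7, both called.

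In the ranking of the differences, with 166 genes positive and 150 negative under the same conditions in both lines and 8 named each way, so that genes whose Huh7 groups overlap, such as EREG, EGR1 and ATP10D, are not in it, the positive end held ARRDC3, 2 fibrinogen chains and CDH6, H1-4 and CPS1, all called in opposite directions in the lines. ARRDC3, an alpha-arrestin that sorts membrane receptors, read 9.61, 9.87 and 9.87 on Hep3B siRNA arrays, against 7.67, 7.66 and 7.73 on Hep3B control arrays. In Huh7 it read 10.70, 10.62 and 10.58 with siRNA, against 10.94, 11.03 and 10.97 with control RNA. The difference was 2.44 ± 0.12 (adjusted p = 2.4e-05, limma). FGB, the fibrinogen beta chain, read 9.55, 9.89 and 10.00 on Hep3B siRNA arrays and 8.17, 8.42 and 8.11 on Hep3B control arrays. In Huh7 FGB read 15.56, 15.47 and 15.37 with siRNA, against 16.25, 16.35 and 16.07 with control RNA. Thus FGB rose by 1.58 in Hep3B and fell by 0.76 in Huh7, where its level was far higher in both groups. FGA rose by 1.09 in Hep3B and fell by 1.04 in Huh7. CDH6 (cadherin-6) and H1-4 (a linker histone) did likewise, at 1.19 and 1.30 in Hep3B, against -0.92 and -0.94 in Huh7. TBX15 changed by 2.29 in Hep3B and by 0.23 in Huh7, where both group means lay within background. CPS1, the entry enzyme of the urea cycle, changed by 0.44 in Hep3B and -1.45 in Huh7. CTSE, cathepsin E, changed by -2.39 in Huh7 and had means of 4.78 with siRNA and 5.10 with control RNA in Hep3B, both within background. The difference of CTSE had an adjusted p of 0.0254, and of 0.0513 to 0.0727 without any one of the 6 Hep3B arrays and 3 Huh7 control arrays. The Hep3B change of CPS1 lost its call without any one of the Hep3B control arrays or of siRNA arrays 2 and 3.

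At the negative end, PROM1, the surface protein CD133, read 10.05, 10.17 and 10.21 on Hep3B siRNA arrays and 11.42, 11.50 and 11.52 on Hep3B control arrays. In Huh7 PROM1 read 9.35, 9.37 and 9.57 with siRNA, against 9.09, 9.08 and 9.32 with control RNA, and the difference was -1.61 ± 0.13 (adjusted p = 0.000403, limma). PROM1 fell by 1.34 in Hep3B, and the Huh7 change of 0.27 was not called. HEG1, a membrane mucin, LRP1, an endocytic receptor, and DIAPH2, an actin-nucleating formin, changed by -0.61, -0.65 and -0.86 in Hep3B, against 0.95, 0.74 and 0.46 in Huh7. MICAL2, which oxidises actin, rose by 1.94 in Huh7. In Hep3B it rose at least 1.11-fold over background, with the control level within background, so its difference has no exact size. MOSPD1 changed by 0.20 in Hep3B, not called, against 1.53 in Huh7. ZNF852 rose by 1.57 in Huh7 and had means of 5.42 with siRNA and 5.23 with control RNA in Hep3B, both within background. DBR1 fell in both lines, with changes of -1.91 in Hep3B and -0.68 in Huh7, a difference of -1.23.

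**Figure D5:**
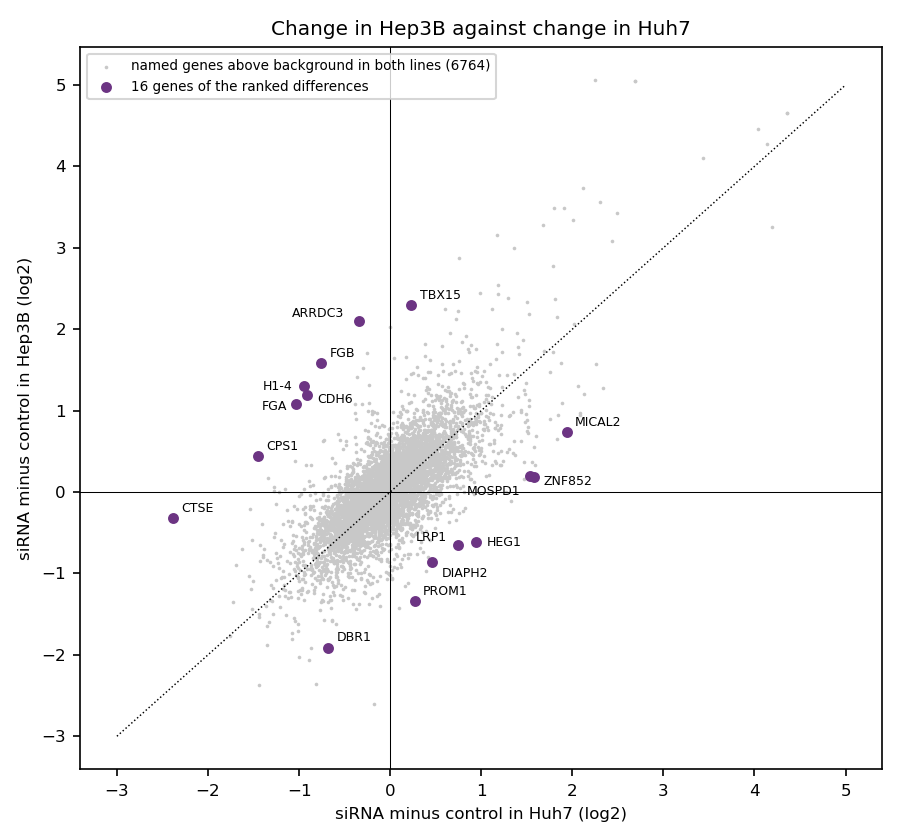
Change in Hep3B (siRNA minus control, log2) against change in Huh7 (log2) for 6764 named genes above background in both lines, in grey, with the 16 named genes of the ranked differences in purple and equal change as a dotted line. ARRDC3, FGB and TBX15 lie far above the line and PROM1, HEG1 and MICAL2 below it.

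Of the lists, the ZNF genes had 85 of 502 higher in Huh7 and 7 lower, with a median of 0.09, and 69 genes rose in both lines. Their difference was called positive for 17 genes and negative for 4. The lysosomal list, with 0 higher and 12 lower in Hep3B, had 4 higher and 8 lower in Huh7, and 4 members differed, all negative. Translocon genes were 3 higher and 9 lower in Huh7 (median -0.10), with 1 positive and 3 negative differences. Histone acetyltransferases and BET proteins had 4 of 19 higher in Huh7, and 2 differed. BRD2 was one of these, with a difference of 1.29. Of the 60 genes of the text with a called difference, 25 kept the call under every alternative other than a 2-fold minimum and 35 lost it under at least 1, RND1, JUNB, TCIM and LAMP2 among them. The number of arrays limits the precision of all these values.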

How the data were processed

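RNA of 12 samples was measured with 1 array each. The values were deposited by the authors as log2 intensities, per the labels and the values themselves. The submitters' processing notes name Agilent Feature Extraction 10.7.1.1, whereas the labels also give an Affymetrix protocol and the row names are Affymetrix transcript clusters. Genome build, probe summary and normalization are not given in the sources used here. Of 70523 rows, 67528 transcript clusters were kept and 2995 others left out. The probe table gave 1 symbol for 23781 of these rows, several for 1543 and none for 42204. For 479 symbols with several rows the brightest was kept, which left 66212 rows. One label conflicts: Huh7 control array 1 is called Hep3B in its description but Huh7 elsewhere, and was used as Huh7.

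Arrays were quantile normalized and fitted with limma 3.58.1 in R 4.3.3 (1 mean per group over all 12 arrays, 8 residual degrees of freedom, trended empirical Bayes, two-sided, Benjamini-Hochberg, threshold 0.05). Figures used matplotlib 3.10.9. Where the lower group lay within background, a fold is the brighter mean over the background level of 5.78. On simulated data of 66212 rows the fit of the Hep3B comparison recovered 56% of changes of 0.5 and 89% of changes of 1 log2 unit among 200 changed rows, with 6 false calls. In the data 6813 rows were called, and the simulated noise was independent between rows. Adjusted p depends on the share of changed rows, so these simulated figures need not hold for the data. Named genes are the 15 largest changes each way past the threshold without overlap and above background, outside the 4 groups, the 8 largest differences each way (without overlap in either line), and up to 4 called members of a list; other members of a list may also be named. Members and lists were chosen with earlier results of these data known. Alternatives tried were median centring, cyclic loess, the deposited values, rows above background, Hep3B arrays alone, every probe as a row, array weights, no trend of the spread, a 2-fold minimum, replicate blocks and leaving out each array.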

Additional observations from a re-analysis of the deposited data

Results flagged for a closer look

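The genes below were flagged because the change in Hep3B differed from that in Huh7 by the test of the difference itself (limma, adjusted p under 0.05 over all rows). Each value is the Hep3B change minus the Huh7 change in log2 units, so that a positive value means a change further upward in Hep3B. Over all named genes 3.05% differed.

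Among growth factors, secreted proteins and binding proteins the difference was 3.12 for EREG, 2.33 for IGFBP1 and 1.24 for THBS1. For the blood proteins it was 2.34 for FGB, 2.13 for FGA, -0.53 for C5, -0.60 for APOC1, -0.94 for C3 and -1.03 for TTR. Transcription factors and chromatin proteins differed by 2.96 (EGR1), 2.25 (H1-4), 2.06 (TBX15), 1.64 (KLF7), 1.48 (JUNB), 1.29 (BRD2), 1.08 (KLF6), 1.06 (KDM6B), 0.79 (ZNF426), 0.74 (JMJD1C), 0.70 (KMT5B), -0.67 (MED23) and -1.39 (ZNF852). In genes that handle RNA or start translation it was 0.65 for both EIF5B and DDX21, 0.64 for ZFP36L1 and -1.23 for DBR1.

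Genes that act on the cytoskeleton differed by 1.57 (RND1), 0.63 (KRT18), 0.54 (VIM), -0.97 (CAP2), -1.20 (MICAL2) and -1.32 (DIAPH2). For cell contact and surface genes the values were 2.11 for CDH6, 1.33 for CDH2, 0.45 for PKP2, -0.58 for SDC2, -0.64 for CDH1, -0.94 for ADAM22, -1.39 for LRP1, -1.56 for HEG1 and -1.61 for PROM1. CDH2 and CDH1 thus differed between lines in opposite directions, and CDH1 lost its call under 2 alternatives.

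In the secretory pathway and lysosome the difference was -0.55 for TMED10, -0.60 for STT3B, -0.70 for ASAH1, -0.75 for EXT2, -0.84 for LAMP2 and 2.07 for CTSE, and for the autophagy gene ATG3 it was 0.55. Enzymes and transporters differed by 1.89 (CPS1), 0.83 (AKR1B10), 0.53 (IDH1), -0.77 (DLAT), -1.17 (SLC6A14) and -2.43 (ATP10D). The remaining values were 2.44 for ARRDC3, 1.46 for PPP1R14BP3, 1.40 for SIPA1L2, 1.08 for TCIM, 0.66 for LRRC37A and -1.34 for MOSPD1. No cause of these differences was tested.

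Several differences have no exact size, because a group was within background. The Hep3B control groups of RND1, KLF7, JUNB, AKR1B10, SIPA1L2, IGFBP1 and MICAL2 were, and so were both Hep3B groups of CTSE and ZNF852. In Huh7 it holds for both groups of EREG, EGR1, IGFBP1 and TBX15, and for at least 1 group of RND1, JUNB, DIAPH2, SLC6A14, ADAM22 and ZNF426. Of the 60 genes 35 lost the call of the difference under at least 1 alternative other than a 2-fold minimum. TCIM lost it under 16 alternatives, JUNB, CAP2, STT3B and ZNF426 under 15, APOC1, LRRC37A and PKP2 under 14, SDC2 under 13, TMED10 under 12, DDX21 under 11 and CTSE under 10. RND1, EIF5B, LAMP2 and VIM lost it under 9, KRT18 under 7, ATG3 under 6, IDH1 and TTR under 5 and C5 under 3. The other 14 lost it under 1 or 2.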

How the results depend on the processing

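Of the 129 genes of the text called in Hep3B, 127 kept direction and call under every alternative other than a 2-fold minimum, and CPS1 and LRP1 lost the call. Of the 60 with a called difference 25 kept it and 35 lost it under at least 1. None of these calls changed sign. The 2-fold minimum left out 54 of the 129 and 27 of the 60. With a minimum of 2-fold, 440 named genes were called (265 higher, 175 lower), 152 differed between lines (97 positive, 55 negative), 16 ZNF genes rose, and 0 translocon, 0 coat and 2 lysosomal genes fell. After median centring 1047 named genes fell, 359 differed (189 positive, 170 negative), and 10 translocon, 7 coat and 7 lysosomal genes fell. With rows above background alone, fewer rows were adjusted over and 1335 named genes differed (739 positive, 596 negative).

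Same-numbered siRNA and control arrays deviated together at r of 0.111, 0.087 and -0.018 in Hep3B and -0.23, -0.035 and 0.248 in Huh7, so numbers were not used as pairs. With the replicate number as a block 173 named genes differed (93 positive, 80 negative), 11 translocon and 7 coat genes fell, and adjusted p was 0.0835 for the difference of CTSE and 0.0964 for CPS1 in Hep3B.

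Leaving out 1 array at a time gave 2848 to 3412 called named genes, 1517 to 1995 higher and 1256 to 1417 lower. Lists gave 122 to 166 ZNF genes higher, and 10 to 14 translocon, 7 to 9 coat and 7 to 9 lysosomal genes lower. Between lines 335 to 717 differed (186 to 385 positive, 149 to 364 negative). That count was 385, 335 and 341 without Hep3B control arrays 1, 2 and 3, 381 and 394 without Hep3B siRNA arrays 2 and 3, 447 and 437 without Huh7 control arrays 1 and 2, and 434 without Huh7 siRNA array 1. Adjusted p of CTSE was 0.0513 to 0.0727 where its call was lost, and that of CPS1 in Hep3B 0.0642 to 0.0973. LRP1 in Hep3B had 0.0536 after median centring. The cause was not tested.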

Other observations

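Rows without a single symbol were also tested. Of 43747 such rows 6475 were above background in Hep3B, and 3.76% rose and 3.14% fell, against 9.35% and 7.55% of named genes. Among named genes, annotated pseudogenes rose in 4.49% and fell in 3.53% of 936 cases, and snoRNA genes in 5.02% and 7.95% of 239. Above background in Hep3B were 224 of these pseudogenes and 84 of these snoRNA genes.

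Lists not described above held few calls. Of 35 TNF receptor superfamily genes and ligands 5 rose and 0 fell (4 lower at an unadjusted p under 0.05 in limma), of 21 ephrins and Eph receptors 3 rose and 0 fell (1 lower by that measure), and of 23 vacuolar ATPase subunits 3 fell and 0 rose (2 higher by that measure). RAB GTPases had 9 of 60 higher and 9 lower, and TRIM ubiquitin ligases 8 of 63 higher and 3 lower. Above background were 5 of the 35 TNF genes, 1 of the 21 ephrin genes and 16 of the 23 ATPase subunits. Not every ephrin gene that rose was therefore above background. Of the RAB and TRIM genes 32 of 60 and 14 of 63 were above background.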
